A study of Mus musculus with 59 samples.

Results

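The glutathione and antioxidant enzymes described here are 39 mouse genes chosen by symbol and looked up among the 24421 genes of the deposited expression table, where all 39 were found. They comprise 14 glutathione transferases, 4 enzymes of glutathione synthesis and recycling, 4 glutathione peroxidases, 6 peroxiredoxins, 4 thioredoxins and their reductases, 3 superoxide dismutase and catalase genes, and 4 genes of the Nrf2 system. RNA came from embryos produced by somatic cell nuclear transfer (SCNT), where a somatic nucleus replaces that of the egg, labelled BDF1 in strain. The labels name cumulus cells as the nuclear donors, and give C57BL/6n females aged 5 to 7 weeks as the source of oocytes. Polyadenylated RNA was sequenced from 5 libraries in each of 4 groups: 1-cell, early 2-cell and late 2-cell embryos without treatment, and late 2-cell embryos given trichostatin A (TSA), a histone deacetylase inhibitor whose dose and duration the labels do not state. Collection was 13 to 14 h after activation for the 1-cell group, 20 to 21 h for the early 2-cell group and 33 to 34 h for both late 2-cell groups. Where 4 values follow each other below, they are in that order of groups. The other 4 RNA libraries, from embryos injected with Dux, were not analysed here.

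The deposited table gives 1 value per gene and group in FPKM, which scales fragments to transcript length and library total, stored as log2(FPKM + 1). How the libraries of a group were combined is not stated. There is therefore no replicate error, no n and no test behind any value or difference below, and the sequencing depth is unknown. FPKM are scaled to transcript length, and levels are set side by side between genes on that basis. The effect of overlapping genes, near-identical copies and the unstated annotation on such ratios was not tested. Every difference below is on the log2(FPKM + 1) scale unless plain FPKM is named. In counts, higher and lower refer to differences of 1 or more in size, which is 2-fold. A value of 0 may be a failed estimate and is only called listed at 0. These are bulk values relative to each column's total, so fewer cells carrying a transcript, less RNA per cell and a different total RNA content per embryo cannot be told apart. Polyadenylated RNA was sequenced, so the amount of a transcript and the share of it that is polyadenylated cannot be told apart either.

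Glutathione is a small thiol made by glutamate-cysteine ligase (catalytic subunit Gclc, modifier subunit Gclm) and glutathione synthetase (Gss), and its oxidised form is recycled by glutathione reductase (Gsr). Glutathione transferases attach it to reactive molecules, glutathione peroxidases use it to reduce peroxides, and peroxiredoxins do the same with electrons from thioredoxin, while superoxide dismutases and catalase act directly on superoxide and hydrogen peroxide. The transcription factor Nrf2, encoded by Nfe2l2 and held in check by Keap1, activates many of these genes through the antioxidant response element. The egg is known to store glutathione and antioxidant transcripts during growth, and the mouse embryo begins its main transcription at the late 2-cell stage.

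Promoter sequences were inspected because Nrf2 acts through a short DNA element, whose core letters TGACNNNGC were searched on both strands from 250 bases before to 50 bases after each RefSeq start (GRCm38.p6). The table of promoters held 41 windows for 33 of the 39 genes. The letters occurred in 19.5% of these windows (8 of 41), against 12.4% of all 32851 windows, and in 8 of the 33 genes (24.2%), against 14.0% of all genes with a window. The 8 genes were Gsta3, Gstm5, Gclm, Prdx1, Mgst1, Txnrd1, Sod1 and Nfe2l2. A match is a run of letters and was not shown to be a site, and no match says only that these letters are not in this window. The median GC content was 58.7% in the windows of these genes and 52.7% in all windows, with a median of 16 and 7 CpG dinucleotides. The 250 bases before the start are shown for Gstm5 and Gstm1, transferase genes of the same stretch of chromosome 3 whose levels differed in opposite directions between the early and late 2-cell stages, and for Gclm and Prdx1, which hold the core letters; all 4 were chosen after their values were seen. Capitals mark those letters, on whichever strand they lie.
Gstm5: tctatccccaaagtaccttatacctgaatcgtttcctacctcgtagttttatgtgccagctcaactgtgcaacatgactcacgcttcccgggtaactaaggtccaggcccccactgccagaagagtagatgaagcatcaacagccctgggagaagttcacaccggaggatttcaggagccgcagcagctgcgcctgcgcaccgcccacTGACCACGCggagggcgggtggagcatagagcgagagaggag
Gstm1: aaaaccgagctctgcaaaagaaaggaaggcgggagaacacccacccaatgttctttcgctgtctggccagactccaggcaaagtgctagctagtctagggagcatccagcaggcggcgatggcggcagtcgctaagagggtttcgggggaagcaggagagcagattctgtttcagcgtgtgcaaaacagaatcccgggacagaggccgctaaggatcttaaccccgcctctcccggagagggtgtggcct
Gclm: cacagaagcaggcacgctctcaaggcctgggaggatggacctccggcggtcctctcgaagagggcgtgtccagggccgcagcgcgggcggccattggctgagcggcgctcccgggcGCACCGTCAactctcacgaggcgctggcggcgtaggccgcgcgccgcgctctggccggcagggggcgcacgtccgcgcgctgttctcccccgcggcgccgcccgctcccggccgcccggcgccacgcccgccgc
Prdx1: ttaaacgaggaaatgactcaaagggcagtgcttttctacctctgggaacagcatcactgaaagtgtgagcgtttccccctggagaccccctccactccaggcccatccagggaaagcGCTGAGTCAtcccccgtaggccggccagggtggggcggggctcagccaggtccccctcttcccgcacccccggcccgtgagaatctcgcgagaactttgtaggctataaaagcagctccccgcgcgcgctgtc
The Gstm5 stretch is chr3:107895604-107895853 on the plus strand, with the letters at -42 to -34 from the start. The Gstm1 stretch is chr3:108017974-108018223 on the minus strand, and it holds no match. A further Gstm1 start has its stretch at chr3:108017819-108018068, which is not shown and holds no match either. In Gclm, chr3:122245307-122245556 on the plus strand, the match lies on the opposite strand at -134 to -126. Prdx1 is shown as chr4:116685349-116685598 on the plus strand, with a match on the opposite strand at -133 to -125.

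More of the 39 genes, and more genes of the whole table, were detected in the late 2-cell columns than in the earlier ones. At least 1 FPKM was listed for 27 of the 39 genes in 1-cell, 33 in early 2-cell and 37 in late 2-cell embryos, and for 36 with TSA. Over all 24421 genes the counts were 9419, 9477, 12215 and 11912. The median level of the 39 genes was 4.01, 4.64, 24.7 and 26.7 FPKM over the 4 groups. Their summed FPKM differed less, at 4528, 6371, 6988 and 5335 FPKM, which is 0.896%, 1.23%, 1.34% and 1.04% of each column's total. Of the 3 untreated columns, the late 2-cell one held the highest value of 28 genes, the early 2-cell one of 6 and the 1-cell one of 5. Of the 13012 genes of the table with at least 1 FPKM in any of these columns, the late 2-cell one held the highest value of 65.03%, the early 2-cell one of 12.8% and the 1-cell one of 22.1%. The heat map of levels shows all 39 genes by role.

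**Figure D1:**
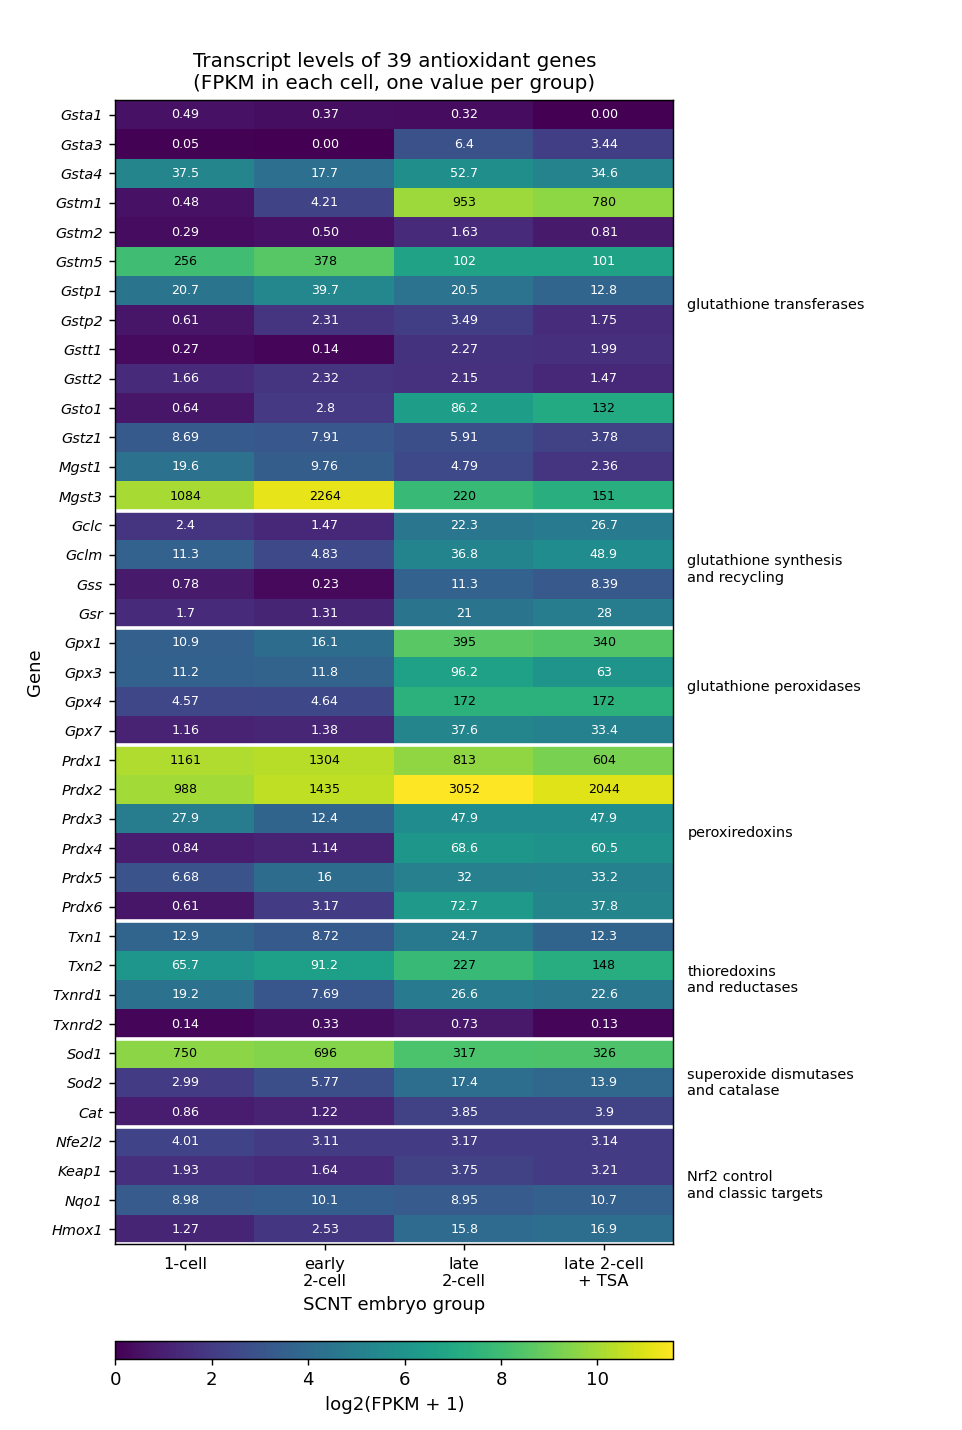
Levels of the 39 genes (rows, by role) in the 4 groups (columns), with FPKM printed in each cell and colour giving log2(FPKM + 1). There is 1 value per group and no error. Mgst3, Prdx1, Prdx2 and Sod1 are bright in the first 2 columns, and the peroxidases Gpx1 and Gpx4 turn bright only in the late 2-cell columns.

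Between the early and late 2-cell stages 23 of the 39 genes were 2-fold higher or more in the late group and 3 lower, and the median difference was 1.40. That comparison spans the main onset of embryonic transcription, and many genes of the table were higher: 47.9% of 12794 genes with at least 1 FPKM in either column were 2-fold higher and 10.9% lower, and their median difference was 0.92. Differences above 0 were found for 29 of the 39 genes and for 71.7% of all genes. The share of the 39 that was higher, 59.0%, has to be read against that 47.9%. Of the 39 genes, 37 reached 1 FPKM in either column. Set against the median of all genes instead of 0, 14 of the 39 were 2-fold higher (24.5% of all genes) and 8 were 2-fold lower (26.7%). These 14 were also 2-fold higher as deposited and after both rescalings tried, median-ratio scaling and quantile normalization, a condition met by 25.5% of all genes. They were Gsta3, Gstm1, Gsto1, Gclc, Gclm, Gss, Gsr, Gpx1, Gpx3, Gpx4, Gpx7, Prdx4, Prdx6 and Hmox1. The 8 that were 2-fold lower against the median of all genes were Gstm5, Gstp1, Gstz1, Mgst1, Mgst3, Prdx1, Sod1 and Nqo1. Only Gstm5 and Mgst3 were 2-fold lower as deposited and after both rescalings (10.8% of all genes). After median-ratio scaling the counts were 15 higher and 8 lower, against 30.2% and 25.6% of all genes, and after quantile normalization 16 higher and 8 lower, against 26.8% and 27.8%. Markers of other cell types also differed at this point. The summed level of 21 cumulus and granulosa markers was 65.2, 53.9, 147 and 111 FPKM, with 8 or 9 of them at 1 FPKM or more in each column, while Cyp11a1, Star, Amh and Foxl2 were under 1 FPKM throughout. Within that list Anxa2 was at 11.5, 8.28, 67.0 and 23.6 FPKM and Lgals1 at 0.46, 1.71, 9.06 and 1.28. Nr5a2, also known from the early embryo, was at 19.5, 13.8, 52.7 and 69.0 FPKM. Other markers of the list were lower in late than in early 2-cell embryos. Cyp19a1 was at 6.26 and 0.50 FPKM in early and late 2-cell embryos, and Bmpr1b at 7.98 and 3.34. In the same order, Hsd3b1 was at 3.11 and 0.28 FPKM and Has2 at 1.34 and 0.75. Summed over 9 blood markers the levels were 0.72, 5.26, 85.4 and 126 FPKM, led in the late columns by Hba-a1 and Hba-a2, while Hbb-b1, Hbb-bs and Hbb-bt were listed at 0 in all 4. The part of these cell types in the antioxidant values was not tested.

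Among the glutathione transferases the leading gene was Mgst3 up to the early 2-cell stage and Gstm1 in both late 2-cell columns. Mgst3, a microsomal transferase on chromosome 1 from 167371966 to 167393841, was at 1084, 2264 and 220 FPKM across the untreated stages and at 151 with TSA. Gstm5, a mu-class enzyme on chromosome 3 from 107895854 to 107898685, was at 256, 378, 102 and 101 FPKM in the same order. Together these 2 genes made up 93.6% of the summed FPKM of the 14 transferases in 1-cell and 96.8% in early 2-cell embryos, but 22.0% in late 2-cell embryos and 20.5% with TSA. Gstm1, another mu-class gene on chromosome 3 from 108012250 to 108017973, was at 0.48, 4.21 and 953 FPKM across the untreated stages and at 780 with TSA. Its difference of 7.51 between the 2-cell stages was the largest of the 39 genes, and it ranked 43rd of all genes in the late 2-cell column. Gsto1, an omega-class enzyme that also reduces dehydroascorbate, was at 0.64, 2.80, 86.2 and 132 FPKM. Gstm1 and Gsto1 together held 0.26% of the transferase sum at the early 2-cell stage, 71.1% at the late one and 74.3% with TSA. Most of this was Gstm1, with 65.2% of the late 2-cell sum, while Gsto1 held 5.90%, below Mgst3 (15.1%) and Gstm5 (6.96%).

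**Figure D2:**
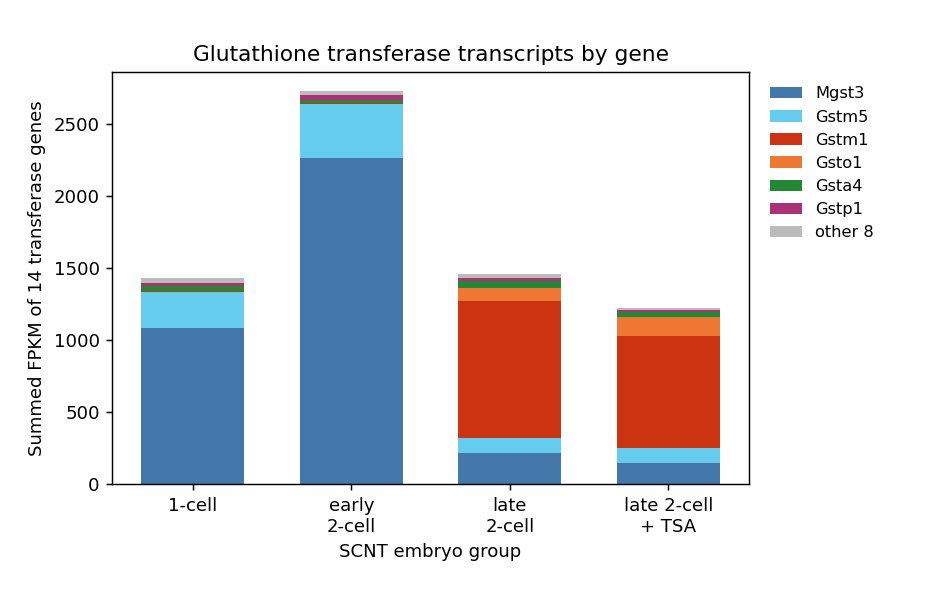
Stacked bars give the summed FPKM of the 14 glutathione transferase genes (y axis) in the 4 groups (x axis), with 1 value per group and no error bars. Mgst3 and Gstm5 fill 96.8% of the early 2-cell bar, whereas Gstm1 alone fills 65.2% of the late 2-cell bar.

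These shares are taken within a column, so multiplying a column by a factor, as median-ratio scaling does, leaves them as they are. The FPKM of Gstm5 was 89.8 times that of Gstm1 in early 2-cell embryos, and the FPKM of Gstm1 was 9.36 times that of Gstm5 in late 2-cell embryos. The summed level of all 14 genes was 1431, 2730, 1461 and 1227 FPKM. In the omega class the order of 2 genes also differed between the stages: Gsto2, which is not among the 39 and was chosen after its values were seen, was at 112, 125, 13.7 and 13.5 FPKM. The level of Gsto2 was 44.8 times that of Gsto1 at the early 2-cell stage, and Gsto1 was 6.30 times Gsto2 at the late one.

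The remaining transferases stayed below Mgst3 and Gstm5 in every column and differed among themselves. Gsta4, an alpha-class enzyme specialised for lipid peroxidation products such as 4-hydroxynonenal, was at 37.5, 17.7, 52.7 and 34.6 FPKM. Gsta3 was at 0.051 FPKM in 1-cell embryos, listed at 0 in early 2-cell, and at 6.40 and 3.44 FPKM in late 2-cell embryos without and with TSA. Mgst1, the microsomal enzyme of mitochondria and endoplasmic reticulum, was lower at each later stage, at 19.6, 9.76 and 4.79 FPKM, and was at 2.36 with TSA. Gstz1, of the tyrosine breakdown pathway, was at 8.69, 7.91, 5.91 and 3.78 FPKM. Thus 2 of these genes were highest in the late 2-cell column and 2 in the 1-cell column. Gstp1, the pi-class enzyme, was at 20.7, 39.7, 20.5 and 12.8 FPKM and the adjacent Gstp2 at 0.61, 2.31, 3.49 and 1.75. Gstp1 and Gstp2 are near-identical copies on chromosome 19 (4035411 to 4037912 and 4040288 to 4042221), so their split is uncertain, and their sums were 21.3, 42.0, 24.0 and 14.5 FPKM. Gstt1 was at 0.27, 0.14, 2.27 and 1.99 FPKM, and its 2-fold difference at the late 2-cell stage was lost with a pseudocount of 5 or quantile normalization. Gsta1, Gstm2 and Gstt2 stayed between 0 and 2.32 FPKM in all 4 columns.

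All 4 genes that make and recycle glutathione were lower in early 2-cell than in 1-cell embryos and higher in late 2-cell embryos. Gclm, on chromosome 3 from 122245487 to 122267215 and with the core letters in its promoter, was at 11.3, 4.83 and 36.8 FPKM across the untreated stages and at 48.9 with TSA. Gclc was at 2.40, 1.47 and 22.3 FPKM and at 26.7 with TSA. Gsr was at 1.705, 1.31 and 21.0 FPKM and at 28.0 with TSA. Gss, the second step of synthesis, was at 0.78, 0.23 and 11.3 FPKM and at 8.39 with TSA, which makes it the only one of the 4 with a lower value under treatment. Their differences between the 2-cell stages ran from 2.70 (Gclm) to 3.32 (Gss), with a median of 3.24, and stayed above 0 for all 4 under both rescalings, where the medians were 2.43 and 2.25. At the first cleavage only Gclm was 2-fold lower (-1.08), and this was lost with a pseudocount of 5 or quantile normalization. In the columns of that comparison Gss was under 1 FPKM, and Gclc and Gsr did not exceed 2.40 FPKM. Their summed FPKM was 16.2, 7.85, 91.4 and 112.

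The glutathione peroxidases had the largest median difference of the 7 roles between the 2-cell stages, 4.28. Gpx1, the cytosolic selenoenzyme for hydrogen peroxide, was at 10.9, 16.1 and 395 FPKM across the untreated stages and at 340 with TSA. Gpx4, the selenoenzyme that reduces lipid hydroperoxides in membranes and guards against ferroptosis, was at 4.57, 4.64 and 172 FPKM and at 172 with TSA. Gpx3, the secreted form, was at 11.2, 11.8 and 96.2 FPKM and at 63.0 with TSA. In all 3 the late 2-cell columns lay far above both earlier ones. Gpx7, of the endoplasmic reticulum, was at 1.16, 1.38, 37.6 and 33.4 FPKM and had the same order. The first cleavage brought differences of at most 0.53 (Gpx1) among the 4. Their medians between the 2-cell stages were 3.38 after median-ratio scaling and 3.59 after quantile normalization.

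Peroxiredoxin transcripts were abundant from the 1-cell stage through Prdx1 and Prdx2, and the other members were under 30 FPKM at that stage. Prdx1, a cytosolic enzyme on chromosome 4 from 116685599 to 116700000, was at 1161, 1304 and 813 FPKM across the untreated stages and at 604 with TSA. Prdx2, also cytosolic, on chromosome 8 from 84969622 to 84974811, was at 988, 1435 and 3052 FPKM and at 2044 with TSA, and was the 9th most abundant gene of the late 2-cell column. The ratio of Prdx2 to Prdx1 was 0.85, 1.10, 3.75 and 3.39. In late 2-cell embryos Prdx2 made up 74.7% of the summed FPKM of the 6 genes. Its difference of 1.09 between the 2-cell stages was close to the median of all genes and was 0.081 after median-ratio scaling and 1.55 after quantile normalization. For Prdx1 the difference was -0.68 as deposited, and -1.69 and -0.061 after these rescalings.

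Prdx4, of the endoplasmic reticulum, and Prdx6, which uses glutathione as reductant and also has phospholipase activity, had the largest differences of the family between the 2-cell stages, 5.02 and 4.14. Prdx4 was at 0.84, 1.14 and 68.6 FPKM across the untreated stages and at 60.5 with TSA, and Prdx6 at 0.61, 3.17, 72.7 and 37.8. The listed copy Prdx6b was at most at 0.021 FPKM. Prdx3, the mitochondrial enzyme, was at 27.9, 12.4, 47.9 and 47.9 FPKM, so it was lower at the first cleavage and higher afterwards. Prdx5, found in mitochondria, peroxisomes and cytosol, was at 6.68, 16, 32.0 and 33.2 FPKM, higher at each later untreated stage. In the early 2-cell comparison Prdx5 and Prdx6 were 2-fold higher than in 1-cell embryos (1.15 and 1.37) and Prdx3 2-fold lower (-1.10).

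Between the thioredoxins the mitochondrial form was the more abundant one in every column, and between their reductases the cytosolic one. Txn2 was at 65.7, 91.2 and 227 FPKM across the untreated stages and at 148 with TSA. Txn1, the cytosolic thioredoxin on chromosome 4 from 57943373 to 57956411, was at 12.9, 8.72 and 24.7 FPKM and at 12.3 with TSA. Txnrd1, the cytosolic reductase of thioredoxin, was at 19.2, 7.69 and 26.6 FPKM and at 22.6 with TSA. Both Txn1 and Txnrd1 had their lowest untreated value at the early 2-cell stage, where Txnrd1 was 2-fold below 1-cell embryos (-1.22). Txnrd2, the mitochondrial reductase, did not exceed 0.73 FPKM. The differences of Txn1, Txn2 and Txnrd1 between the 2-cell stages, 1.40, 1.305 and 1.67, lay within 1 of the median of all genes, and after either rescaling none of the 3 reached 2-fold.

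Sod1, the cytosolic copper and zinc superoxide dismutase, was the most abundant gene of its group throughout, at 750.4, 696, 317 and 326 FPKM. Sod2, the mitochondrial manganese enzyme, was at 2.99, 5.77, 17.4 and 13.9 FPKM. The level of Sod1 was thus 250.7 times that of Sod2 in 1-cell embryos and 18.2 times in late 2-cell embryos. Cat, the peroxisomal catalase, was at 0.86, 1.22, 3.85 and 3.90 FPKM and never reached 5 FPKM. The difference of Sod1 between the 2-cell stages was -1.13, with -2.14 after median-ratio scaling and -0.90 after quantile normalization. That of Sod2 was 1.44, but 0.53 and 0.40 after these rescalings. That of Cat was 1.13, but 0.44 and 0.066. Sod1 thus missed 2-fold only after quantile normalization, and Sod2 and Cat after both rescalings.

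Nfe2l2 and Keap1, the regulators themselves, stayed under 5 FPKM in every column. Nfe2l2 ran from 3.11 to 4.01 FPKM and Keap1 from 1.64 to 3.75 FPKM over the 4 columns. Nqo1, a quinone reductase widely used as an Nrf2 target, was at 8.98, 10.1, 8.95 and 10.7 FPKM, with no difference of 1 in any comparison as deposited. Between the 2-cell stages its difference was -0.16 as deposited, but -1.08 against the median of all genes, -1.06 after median-ratio scaling and -1.22 after quantile normalization, so it was 2-fold lower under each of these. Hmox1, the inducible heme oxygenase, was at 1.27, 2.53 and 15.8 FPKM across the untreated stages and at 16.9 with TSA, a difference of 2.25 between the 2-cell stages. Hmox1 was 2-fold higher under the same scalings. The signs of the Nfe2l2 and Keap1 differences between the 2-cell stages changed with the rescaling.

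The first cleavage, early 2-cell against 1-cell, was accompanied by smaller differences in both directions. Of the 39 genes, 6 were 2-fold higher (15.4%) against 3.72% of 10117 genes with at least 1 FPKM in either column, and 4 were 2-fold lower (10.3%) against 7.12%. Above 0 were 23 of the 39 genes and 44.1% of all genes. The median difference of the 39 was 0.15, beside -0.08 over all those genes, and 33 of the 39 reached 1 FPKM in either column. The higher genes were Gstm1 (1.82), Prdx6 (1.37), Gsto1 (1.21), Prdx5 (1.15), Mgst3 (1.06) and Gstp2 (1.04). Gstm1, Gsto1, Prdx6 and Gstp2 were under 1 FPKM in the 1-cell column and under 5 FPKM in the early 2-cell column, so of the 6 only Mgst3 and Prdx5 were above 5 FPKM in both columns. All of the 6 but Mgst3 were 2-fold higher as deposited and under both rescalings (5 of 39, against 3.69% of all genes), and 0 of the 39 were lower under that condition (4.73%). Gstp2 is among these 5, but its split from Gstp1 is uncertain. Summed, the pair was at 21.3 and 42.0 FPKM in 1-cell and early 2-cell embryos, which is under 2-fold as deposited. The lower genes were Txnrd1 (-1.22), Prdx3 (-1.10), Gclm (-1.08) and Gsta4 (-1.05). With a pseudocount of 5 only Mgst3 was still counted as higher and 0 as lower, and 0 were lower after quantile normalization. By role, the 4 glutathione peroxidases and 5 of 6 peroxiredoxins lay above 0, and the 4 synthesis and recycling genes below 0, also under both rescalings. Among the latter, Gss was under 1 FPKM in both columns.

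**Figure D3:**
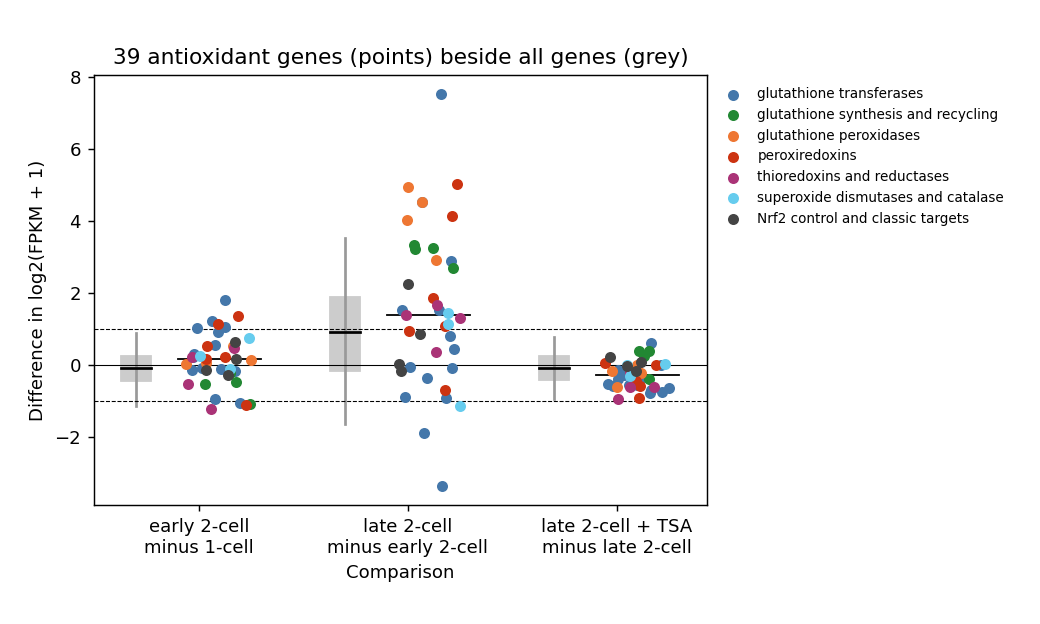
Differences in log2(FPKM + 1) of the 39 genes (points, coloured by role) in the 3 comparisons, with a short line at their median. The grey box and whisker beside them give the quartiles and the central 90% of all genes with at least 1 FPKM in either column, and dashed lines mark a 2-fold difference. The points spread most between the 2-cell stages, from -3.36 (Mgst3) to 7.51 (Gstm1), and none reaches a dashed line with TSA.

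TSA-treated late 2-cell embryos were compared with untreated ones to ask how transcripts of these genes differ in embryos given this inhibitor. None of the 39 genes was 2-fold apart in either direction (0 higher and 0 lower), while 2.51% of 12756 genes were 2-fold higher and 4.08% lower. Differences ran from -0.95 (Txn1) to 0.61 (Gsto1), with a median of -0.29 beside -0.08 over all genes, and 37 of the 39 reached 1 FPKM in either column. Values with TSA were below the untreated ones for 29 of the 39 genes (74.4%), against 56.7% of all genes. The count was 26 of 39 after either rescaling, with medians of -0.14 and -0.24, and the signs of Gstm5, Prdx3 and Nfe2l2, all near 0, depended on the scaling. With no replicate values, it cannot be said whether these shifts exceed the spread between libraries.

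In plain FPKM, 11 of the 39 genes were at least 1.5-fold lower with TSA (20.9% of all genes), and 1, Gsto1, was at least 1.5-fold higher (12.5%). The 11 were Gsta3, Gsta4, Gstm2, Gstp1, Gstp2, Gstz1, Mgst1, Gpx3, Prdx6, Txn1 and Txn2. Of these, Gstm2, Mgst1 and Txn1 were at least 2-fold lower (9.1% of all genes) and 0 were 2-fold higher (5.23%), Txn1 being lower 2.00-fold and Mgst1 2.03-fold. Gstm2 did not exceed 1.63 FPKM. The untreated value of Prdx6 was 1.92 times the treated one, just short of that size. Txn1 and Txn2 stood together on the low side, with differences of -0.95 and -0.61.

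By role, the transferases lay lowest with TSA together with the thioredoxin group, and the synthesis and recycling genes lay highest. Of the 14 transferases, 13 were below 0 with a median of -0.54, and Gsto1 was above 0. After either rescaling 12 were below 0, and the medians were -0.39 in both. All 4 genes of the thioredoxin group were below 0, with a median of -0.61 as deposited, -0.45 after median-ratio scaling and -0.55 after quantile normalization. Gclc, Gclm and Gsr were above 0 under each of these scalings, by 0.25, 0.40 and 0.40 as deposited, and Gss was below 0 at -0.39. Hmox1 and Nqo1 were also above 0, by 0.09 and 0.23. Among the peroxiredoxins Prdx1 (-0.43), Prdx2 (-0.58) and Prdx6 (-0.92) were lower in value with TSA, Prdx5 differed by 0.05, and Prdx3 was at 47.9 FPKM in both columns. Gpx4 was at 172 FPKM in both columns, while Gpx3 differed by -0.60.

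**Figure D4:**
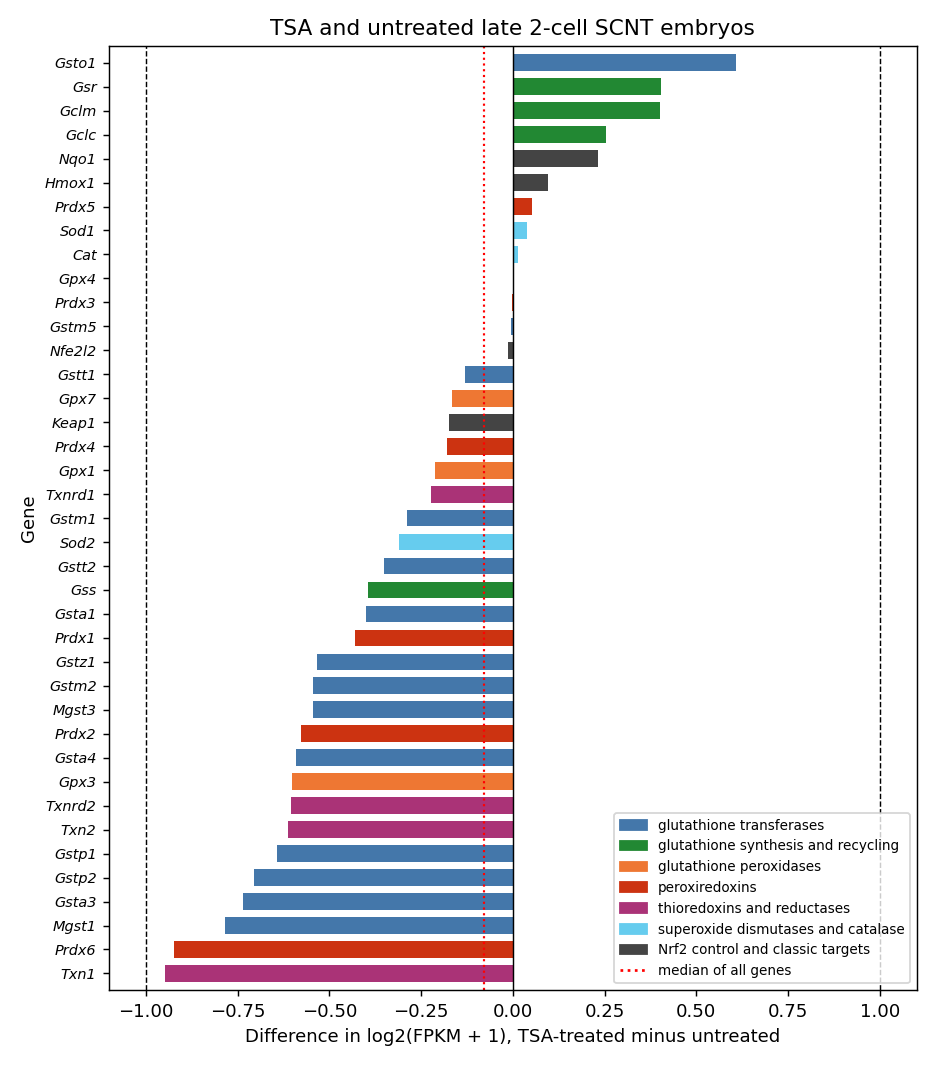
Bars give the difference in log2(FPKM + 1), TSA-treated minus untreated late 2-cell embryos (x axis), for each of the 39 genes (y axis), coloured by role and sorted. Dashed lines mark a 2-fold difference and the dotted red line the median of all genes, -0.08. Bars run from -0.95 (Txn1) to 0.61 (Gsto1), and 29 of 39 lie below 0.

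The 3 comparisons share columns: the untreated late 2-cell values enter the TSA comparison and that between the 2-cell stages, and the early 2-cell values enter both stage comparisons. A low or high estimate in a shared column would move both comparisons, so agreement or opposition between them is not given as a result. For Prdx6, for example, 4.14 and -0.92 both rest on its untreated late 2-cell value of 72.7 FPKM.

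Other genes of the same pathways, 101 by symbol of which 98 were found, were counted in the same way. Between the 2-cell stages 47 of the 98 were 2-fold higher (48.0%) and 11 lower (11.2%), with a median of 0.93. Over all genes with at least 1 FPKM in either column the values were 47.9%, 10.9% and 0.92. Only 86 of the 98 reached that level, so shares of the 98 are smaller than shares of those 86 would be. Of 16 further transferases and peroxidases 7 were higher and 2 lower, of 17 turnover and transport genes 7 and 3, and of 23 glutaredoxin, thioredoxin-partner and repair genes 10 and 3. Of 17 genes of NADPH supply, which powers both reductases, 6 were higher and 1 lower, and of 25 Nrf2 partners, regulators and further targets 17 and 2. The largest differences were those of Gpx2, the peroxidase known from gut epithelium (0.50 to 68.1 FPKM), Ftl1, the ferritin light chain (198 to 4000 FPKM), Gstt3 (0.36 to 24.5 FPKM) and Hagh, a glyoxalase (0.51 to 19.05 FPKM). The 1 lower gene of NADPH supply was G6pdx, the first enzyme of the pentose phosphate pathway, at 80.5 against 20.3 FPKM, named after its values were seen.

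At the first cleavage 1 of the 98 was 2-fold higher (1.02%) and 6 were lower (6.12%). Over all genes with at least 1 FPKM in either column the shares were 3.72% and 7.12%. Only 59 of the 98 reached that level, so shares of the 98 are smaller than shares of those 59 would be. The 2 sets of shares are therefore not on the same basis. The higher one was Mafk, at 1.19 and 4.28 FPKM, named after its values were seen. The lower ones included Txnip, the thioredoxin-binding protein (16.6 to 5.18 FPKM), Glrx, a glutaredoxin (87.3 to 37.5 FPKM), Bach1, a repressor at antioxidant response elements (19.4 to 8.30 FPKM), and Akr1b8, an aldo-keto reductase (7.65 to 3.03 FPKM). With TSA, 1 of the 98 was 2-fold higher (1.02%) and 3 were lower (3.06%). The shares of all genes with at least 1 FPKM in either column were 2.51% and 4.08%, and 86 of the 98 reached that level. Mafk, a small Maf partner of Nrf2 and Bach1, was at 41.1 FPKM with TSA and 18.9 without. Akr1b8 was at 1.11 against 5.41 FPKM, and Fth1, the ferritin heavy chain, at 1578 against 3323 FPKM. The third, Nnt, a mitochondrial NADPH source named after its values were seen, was at 0.030 against 1.47 FPKM. The median of the 98 with TSA was -0.20, beside -0.08 over all genes with at least 1 FPKM in either column.

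Several limits of the table touch these genes. Of the 39 genes, 11 overlap another RefSeq gene, among them Gclm, Gsr, Prdx1, Prdx5 and Txnrd1, and no source used here says whether counting used strand. The oocyte and embryo markers checked against the labels were present, with 16 to 18 of 18 at 1 FPKM or more in each column.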

How the data were processed

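The table used holds log2(FPKM + 1), as deposited by the authors and stated per the file headers, with 1 value per gene for each group. The submitters' processing notes list, with no roles, Cufflinks, StringTie 1.3.4, HISAT2 2.1.0, SAMtools 1.7, deepTools 2.5.7 and Bowtie2 2.3.4.3, and the build mm10. No source used here states the annotation or how libraries were combined. Of 6 value columns, 4 were matched to labelled RNA groups, the 1-cell one by its 13 h name, and 2 matched no RNA library and were not used. The 35 chromatin libraries were not analysed here.

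Values were converted to FPKM, and differences were taken with a pseudocount of 1 (Python 3.11.15, pandas 2.3.3). Background shares cover genes with at least 1 FPKM in either column. No test was possible with 1 value per group. The calculation was tested on simulated data with known changes, no noise and starting values of at least 5 FPKM, which checks its arithmetic only. A search for steps of whole reads, with gene span as length, found at most 26.9% of values near (0.1) a multiple, where 20% is the share without steps, so depth is unknown. All 39 genes matched RefSeq symbols. Genes with at least 5 FPKM in any column or a 2-fold difference are given in full, and of other pathway genes up to 4 per comparison. Alternatives were pseudocounts of 0.1 and 5, no filter, a 5 FPKM filter, median-ratio scaling, quantile normalization, and summing Gstp1 with Gstp2. The 39 genes and the other lists were chosen with earlier results of these data known.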

Additional observations from a re-analysis of the deposited data

How the results depend on the processing

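Scaling mattered most between the 2-cell stages, where it moved the median of all genes from 0.92 to 0.06 (median-ratio scaling) and -0.14 (quantile normalization). For the 39 genes, the median difference between the 2-cell stages of 1.40 became 0.46 and 0.69 under these scalings, 1.57 and 1.09 with pseudocounts of 0.1 and 5, and 1.42 with Gstp1 and Gstp2 summed. The counts of 23 higher and 3 lower became 15 and 8 after median-ratio scaling, and the lower count became 8 after quantile normalization. The higher genes made up 81.4% of all 2-fold genes as deposited, against 54.1% and 49.0%. At the first cleavage the median of 0.15 became 0.24, 0.22, 0.17, 0.054 and 0.15 in the same order of settings. There, 1 gene was higher and 0 lower with a pseudocount of 5, 2 were higher with the 5 FPKM filter, and 0 were lower after quantile normalization. With TSA the median of -0.29 became -0.14, -0.24, -0.29, -0.17 and -0.26, and the counts of 0 held under all 7 alternatives. TSA higher genes made up 38.1% of all 2-fold genes, against 61.2% and 52.7% after the scalings. No called gene changed direction under any alternative in which it was kept. The causes of these shifts were not tested. No paired analysis was possible because the table holds 1 value per gene and group, and leaving out single libraries was not run for the same reason. The plain FPKM counts, the counts against the median of all genes and those shared by all scalings were added after seeing the data. Depth is unknown, so no detection limit is given.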
